A study of Mus musculus with 8 samples.

Results

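Hematopoietic cluster cells of the mouse embryo were compared by the activity of a Ly6a reporter. The comparison rests on 4 of the 8 arrays of the series: 2 of GFP+ cluster cells and 2 of GFP- cluster cells, chosen by their labels. The other 4 arrays, of endothelial cells, are used here to estimate spread and to ask where a difference departs from that of endothelium. All cells came from embryos of C57BL/6 x 129S1/SVImJ F1 mothers and Tg(Ly6a-GFP) fathers at E10.5, in mid-gestation. In this transgene green fluorescent protein (GFP) stands in for Ly6a, the gene of the stem cell antigen Sca-1. The dissected arteries (A+U+V in the labels) of 100 embryos were pooled. Cluster cells were sorted as positive for CD31, VE-cadherin (VEC), ESAM and Kit, and 30000 GFP+ and 130000 GFP- cells were collected. The endothelial groups, 70000 GFP+ and 300000 GFP- cells, passed the same gate without Kit. All 4 groups thus carried the same transgene, sex label (male) and age, and the 2 cluster groups passed the same surface gate and were divided by the reporter. The RNA of each group was divided into 2 fractions before amplification and labelled for 1-colour expression arrays. The arrays of a group are thus technical fractions of 1 pool, and p-values measure only the spread between them.

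During development the first stem and progenitor cells of the blood bud from specialised endothelium of large arteries and collect there as clusters. The transition needs the factor Runx1, and Gfi1 takes part in switching off the endothelial program while blood genes come on. The same clusters hold cells at several steps, among them progenitors of red cells, and Sca-1 marks cells with stem cell potential in some mouse strains.

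Values are given as a level, which is log2 of the scanner's processed signal minus the 75th percentile of the same array, so that 0 is the signal of a fairly bright probe. Differences are log2 fold changes of GFP+ over GFP- cluster cells with their standard errors, n = 2 against 2 arrays. A gene was called at an adjusted p under 0.05 in limma with Benjamini-Hochberg adjustment over all genes. The cluster arrays had between 54.6% and 61.9% of probes well above background and no saturated spot. Probe positions are in build mm9 and promoter positions in GRCm38.p6. Since these are bulk samples, fewer cells of a type and less RNA per cell cannot be told apart.

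Genes of the gate check the labels, and since cells were selected on them their differences are no finding. Ly6a (chr15:74825553-74825612) had levels of -0.48 and -0.57 on the GFP+ arrays and -3.95 and -3.87 on the GFP- arrays. Kit, the receptor of stem cell factor, had levels of 2.87 and 2.87 against 1.94 and 2.02. Cdh5 (VE-cadherin) stood at 3.73 and 3.67 against 4.16 and 4.11 and Pecam1 (CD31) at 0.80 and 1.04 against 1.12 and 1.22. Esam, a junction protein, had levels of 3.59 and 3.47 against 3.60 and 3.63. All 5 were well above background on the 4 arrays, and Ly6a was low but measurable in the cells sorted as GFP-. The 18S ribosomal RNA probe (Rn18s) stood at 7.06 and 5.95 against 5.16 and 5.22, with the first GFP+ array apart from the second, and its part in the results was not tested.

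Of 19538 genes tested, 6397 were called (32.7%), 2307 higher (11.8%) and 4090 lower (20.9%) in GFP+ cells. With a 2-fold minimum 1052 remained (5.38%), 585 higher (2.99%) and 467 lower (2.39%), and with a 4-fold minimum 89 higher (0.456%) and 102 lower (0.522%). The median over all genes was -0.076, and counts of list members below are read against these shares and this median. The gene lists describe what rose and fell together: genes of red cells were far lower in GFP+ clusters, while factors of blood emergence, blood cell signalling genes, macrophage genes and interferon-induced genes were higher. The number of arrays limits the precision, and single-gene levels of 25 genes are plotted by array.

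**Figure D1:**
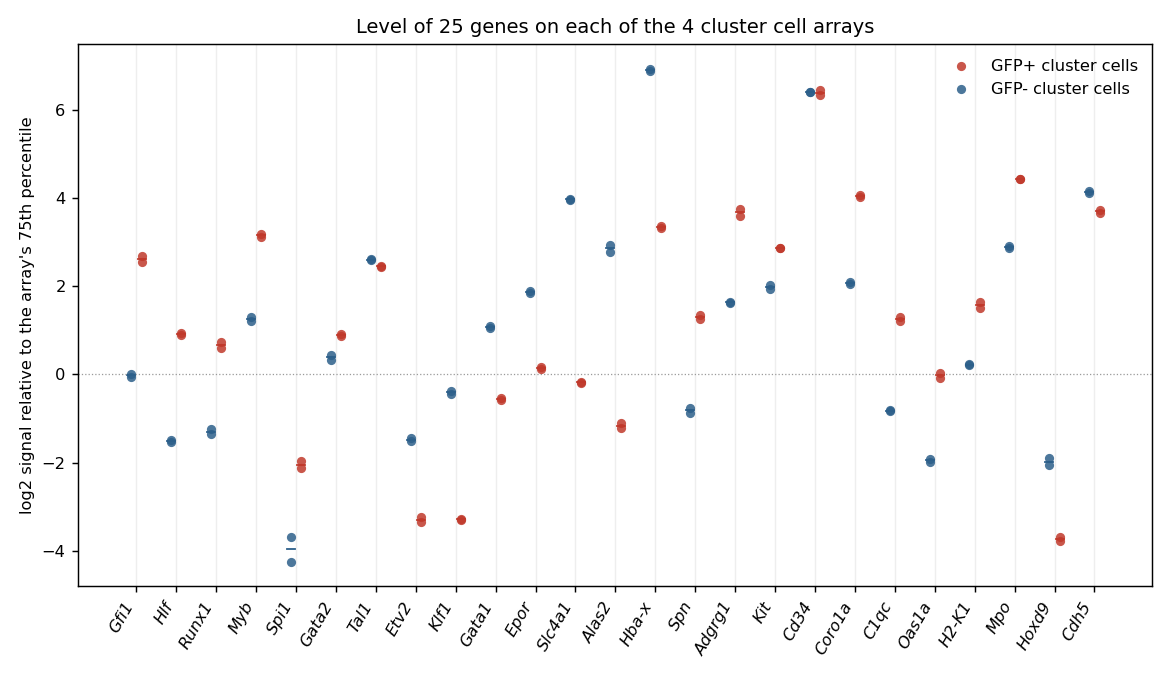
Level of 25 genes on each cluster cell array; the vertical axis is log2 signal relative to the array's 75th percentile, each point is an array and each bar the mean of the 2 arrays of a group. The GFP+ and GFP- points of Gfi1 sit at 2.61 and -0.019 on average and those of Slc4a1 at -0.18 and 3.96, while those of Cd34 overlap.

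Transcription factors that start and keep the blood program were the first group. Of 41 measured regulators, 24 were called higher, 7 lower and 10 did not pass, and the median was 0.50. Gfi1, the repressor that shuts down endothelial genes in budding cells (chr5:108145719-108145778), had levels of 2.67 and 2.55 on the GFP+ arrays and -0.049 and 0.012 on the GFP- arrays. The groups were far apart, and the fitted difference was 2.63 ± 0.070 (adjusted p = 2.4e-05). Its relative Gfi1b (chr2:28464982-28465041), which acts beside it and in red cell and platelet precursors, had levels of 1.06 and 0.98 against 0.32 and 0.32. That difference of 0.70 ± 0.071 was called too (adjusted p = 0.00125). Runx1 (chr16:92605785-92605844) read 0.74 and 0.60 against -1.25 and -1.34, a difference of 1.96 ± 0.090 (adjusted p = 8.64e-05).

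Hlf, a factor that marks newly formed stem cells, rose by 2.41 ± 0.21, from -1.47 and -1.52 to 0.89 and 0.94. Mecom, the Evi1 locus needed for stem cell maintenance, rose by 0.87 ± 0.098 and Meis1, a partner of Hox proteins, by 0.84 ± 0.059. Myb, required for definitive but not for primitive blood, had levels of 3.19 and 3.12 on the GFP+ arrays and 1.30 and 1.21 on the GFP- arrays. The Myb groups did not overlap, and the difference was 1.90 ± 0.062 (adjusted p = 3.83e-05). Ikaros family members also rose, Ikzf2 by 2.01 ± 0.076 and Ikzf1 by 1.43 ± 0.21. Spi1 encodes PU.1, the master factor of myeloid cells; it was low on all 4 arrays, at -2.12 and -1.97 against -4.24 and -3.68, and rose by 1.91 ± 0.22. Cebpa, which acts with it in granulocyte and monocyte fate, rose by 1.77 ± 0.090 from a similarly low level, and Cebpb by 1.51 ± 0.070.

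The core factors of the endothelial and early blood program differed less. Gata2, an activator of Runx1, rose by 0.50 ± 0.066, and Lyl1 and Lmo2 by 0.26 and 0.20. Tal1 (SCL), which works with them, had a difference of -0.16 ± 0.046 that did not pass (adjusted p = 0.051), and neither did Fli1 (-0.076), Erg (0.11) or Cbfb (-0.18), the partner of Runx1. The 7 regulators called lower were Etv2 (-1.81 ± 0.072), Sox17 (-0.50), Sox18 (-0.47), Id3 (-0.46), Ldb1 (-0.38), Sox7 (-0.31) and Id2 (-0.19). Etv2 is the transient pioneer factor of hemangioblasts and first endothelium, and the Sox17, Sox18 and Sox7 factors hold cells in the arterial endothelial state. Etv2 stood at -3.23 and -3.34 against -1.51 and -1.44, with no overlap.

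Red cell genes made up the deepest falls. Their products build the red cell: globins carry oxygen, the membrane skeleton and the blood group carriers give it shape and ion exchange, and heme is made for globin from glycine with iron. All 7 globin genes called were lower, 0 were higher and 1 of the 8 measured did not pass; the median was -3.04. Hba-x, the embryonic zeta chain (chr11:32177668-32177727), had levels of 3.31 and 3.36 on the GFP+ arrays and 6.88 and 6.93 on the GFP- arrays. Hba-a1, an adult alpha chain, read 3.78 and 3.85 against 7.39 and 7.40, and Hbb-y, the embryonic epsilon chain, 6.21 and 6.24 against 8.98 and 8.87. For each of these chains both GFP+ arrays lay below both GFP- arrays. Differences were -3.57 ± 0.054 for Hba-x, -3.58 ± 0.054 for Hba-a1, -3.59 ± 0.051 for Hbb-b2, -3.37 ± 0.043 for Hbb-bt, -2.71 ± 0.050 for Hbb-bh1, -2.70 ± 0.066 for Hbb-y (-1.25 by another probe) and -2.46 ± 0.051 for Hba-a2. Embryonic and adult chains both fell; the near-identical copies of alpha and beta globin can share probe signal. Hbb-bh2 was well above background in GFP- cells alone and was not called (adjusted p = 0.107).

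Of 24 measured red cell membrane genes, 18 were lower, 1 higher and 5 not called (median -2.74, or -2.32 with genes below background at their bound). Slc4a1 (chr11:102210256-102210315), the band 3 anion exchanger, had levels of -0.19 and -0.18 on the GFP+ arrays and 3.97 and 3.96 on the GFP- arrays. It fell by 4.15 ± 0.057 on the log2 scale (adjusted p = 5.81e-06). Rhd, a Rhesus carrier (chr4:134452018-134452077), stood at -2.05 and -2.09 against 2.04 and 2.15 and Kel, the Kell antigen (chr6:41636474-41636533), at -2.77 and -2.48 against 1.37 and 1.34, so both dropped from above to far below the array's 75th percentile. Several others were well above background in GFP- cells alone and have only a bound: Aqp3 was at least 24.6-fold lower, Ank1, the anchor of the membrane skeleton, at least 10.3-fold and Rhag at least 8.94-fold lower. The 5 not called were Epb41 (-0.039), Xk (-0.069), Cd59a (0.012), Ermap (-0.38, adjusted p = 0.0504) and Bsg (-0.30, adjusted p = 0.0515). The 1 that rose was Cd47 (0.48 ± 0.039), the signal that protects cells from being eaten. With the genes below background left out, 12 of 16 members were lower and the median was -0.94.

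Enzymes of heme synthesis and carriers of iron followed: 22 of 27 were lower, 0 higher and 5 not called, with a median of -0.67. Alas2 (chrX:147004993-147005052), which makes the first heme precursor in red cells, stood at -1.22 and -1.10 against 2.78 and 2.93 and fell by 4.01 ± 0.076, whereas Alas1, the housekeeping form of the same enzyme, had a difference of -0.11 ± 0.064 that did not pass (adjusted p = 0.232). Later enzymes fell less, Cpox by 1.51 and Fech by 1.43. The mitochondrial iron importer Slc25a37 (mitoferrin) fell by 1.96, its partner Abcb10 by 1.39 and the transferrin receptor, Tfrc, fell by 1.18. The ferritin chains Fth1 (-0.15) and Ftl1 (-0.051) and the heme-degrading Hmox1 (0.13) did not pass.

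The list of red cell regulators and maturation genes, which also holds red cell products, split. Of 25 measured, 7 were higher, 9 lower and 9 not called (median -0.17). Among those not called were Car1 (-0.39), Tspo2 (-0.31), Hemgn (-0.21) and Stat5b (-0.092). Klf1, the activator of adult globin genes (chr8:87428881-87428940), had levels of -3.30 and -3.27 on the GFP+ arrays and -0.44 and -0.37 on the GFP- arrays; it fell by 2.88 ± 0.14 (adjusted p = 9.43e-05). Gata1, the lineage factor of red cells and platelets (chrX:7536392-7536451), read -0.54 and -0.58 against 1.04 and 1.10, and Epor, the erythropoietin receptor (chr9:21763422-21763481), 0.13 and 0.16 against 1.88 and 1.85. Gata1 and Epor were thus lower on both GFP+ arrays, by 1.63 and 1.72, but stayed near the array's 75th percentile. Ahsp, the chaperone of free alpha chains, fell by 3.77 ± 0.068. The 7 that rose are also known from progenitors: Myb, Nfe2 (1.45), Bcl11a (1.34), a silencer of embryonic globins, Cited2 (0.70), Gfi1b, Lmo2 and the signal transducer Stat5a (0.39). Over the globin, membrane and heme lists joined, 47 of 59 genes were lower, 32 of them by at least 2-fold, and 1 was higher.

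The sequence before the start of these genes was read because they fell together and because GATA factors are their known activators. RefSeq promoter windows were cut to the 250 bases before the start and searched on both strands for the GATA motif (AGATAA or TGATAA), an interferon response motif (GAAA, any 2 bases, then GAAA), a PU.1 motif (GAGGAAGT), an ETS motif (CCGGAAGT), a RUNX motif (TGTGGT) and an NF-kB motif (GGG, any 2 bases, then TTTCC); the PU.1 and ETS motifs share the letters GGAAGT. A match is a description of letters and no proof of a site. The GATA motif was in 16.6% of all 32851 windows and 10.3% of the windows of genes tested. Among genes called at least 4-fold lower it was in 23 of 88 windows (26.1%), against 10 of 74 (13.5%) among those at least 4-fold higher. With a 2-fold minimum the shares were 59 of 380 (15.5%) lower and 75 of 496 (15.1%) higher. It was in 5 of 6 windows of measured globin genes, 6 of 19 of red cell membrane genes and 5 of 33 (15.2%) of heme and iron genes. Below are the windows of 6 genes that fell, 5′ to 3′ towards the start, with the GATA motif in capitals on whichever strand it reads; TTATCT and TTATCA are the reverse strand of the same motif.
Rhd, chr4:134864286-134864535, plus strand: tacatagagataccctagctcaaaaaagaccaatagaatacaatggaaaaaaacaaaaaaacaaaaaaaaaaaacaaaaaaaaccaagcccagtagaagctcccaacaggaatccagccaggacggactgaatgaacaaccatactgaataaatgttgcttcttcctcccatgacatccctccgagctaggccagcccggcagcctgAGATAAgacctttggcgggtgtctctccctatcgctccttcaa
Kel, chr6:41704326-41704575, minus strand: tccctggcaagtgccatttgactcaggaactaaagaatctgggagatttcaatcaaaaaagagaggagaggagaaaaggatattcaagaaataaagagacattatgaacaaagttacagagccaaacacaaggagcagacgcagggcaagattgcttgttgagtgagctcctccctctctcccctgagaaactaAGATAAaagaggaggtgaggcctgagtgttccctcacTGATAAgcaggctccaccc
Alas2, chrX:150547167-150547416, plus strand: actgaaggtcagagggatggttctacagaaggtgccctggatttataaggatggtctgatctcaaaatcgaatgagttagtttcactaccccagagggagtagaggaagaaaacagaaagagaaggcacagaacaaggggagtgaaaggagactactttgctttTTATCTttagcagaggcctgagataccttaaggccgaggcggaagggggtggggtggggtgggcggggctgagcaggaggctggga
Hba-x, chr11:32276350-32276599, plus strand: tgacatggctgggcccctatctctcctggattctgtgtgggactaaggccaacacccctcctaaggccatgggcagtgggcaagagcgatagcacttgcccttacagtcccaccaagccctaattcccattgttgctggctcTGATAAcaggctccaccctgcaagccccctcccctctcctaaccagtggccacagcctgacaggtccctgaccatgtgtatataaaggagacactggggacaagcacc
Klf1, chr8:84901732-84901981, plus strand: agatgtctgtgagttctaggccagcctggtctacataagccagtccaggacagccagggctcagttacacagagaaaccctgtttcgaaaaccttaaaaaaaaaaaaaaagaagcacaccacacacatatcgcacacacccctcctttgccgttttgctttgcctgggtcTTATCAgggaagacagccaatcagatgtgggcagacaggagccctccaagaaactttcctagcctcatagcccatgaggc
Epor, chr9:21963577-21963826, minus strand: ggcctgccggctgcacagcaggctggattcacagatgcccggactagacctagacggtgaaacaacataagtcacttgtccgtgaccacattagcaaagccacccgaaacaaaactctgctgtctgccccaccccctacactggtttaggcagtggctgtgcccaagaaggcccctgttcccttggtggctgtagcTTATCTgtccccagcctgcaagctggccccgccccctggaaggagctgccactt

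The windows shown all hold the motif, whereas it was in 6 of 19 windows of the membrane list and 5 of 33 of the heme list. They are thus no sample of the genes that fell. In the windows shown the motif began between 19 and 108 bases before the start. Kel held 2 matches, 56 and 19 bases before it, and the other 5 genes held 1 each. Windows for Slc4a1, Ahsp and Ank1 were not analysed here.

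Surface antigens and other markers of stem and blood cells gave more rises than falls: 20 of 32 rose, 2 fell and 10 did not pass (median 1.19). Spn, the sialophorin CD43 that appears as cells commit to blood, read 1.34 and 1.26 against -0.75 and -0.87. Ptprc, the pan-blood phosphatase CD45, was below the array's 75th percentile everywhere, at -1.41 and -1.17 against -3.33 and -3.01, and rose by 1.88 ± 0.16. Adgrg1 (GPR56), a target of blood emergence factors, rose by 2.04 ± 0.069, the Golgi glycosyltransferase Gcnt2 by 1.94 and the early blood integrin Itga2b (CD41) by 0.82. Cd34, present on endothelium and blood progenitors alike, had 6.44 and 6.33 against 6.39 and 6.40, and its difference of -0.012 ± 0.071 did not pass (adjusted p = 0.92). The 2 that fell were Emcn (-0.48) and Prom1 (-0.32).

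Among receptors of growth factors and interleukins 17 of 29 rose and 4 fell (median 0.55). Flt3, a receptor of multipotent and lymphoid progenitors, had levels of 0.24 and 0.16 on the GFP+ arrays and -1.87 and -1.74 on the GFP- arrays. The groups did not overlap, and it rose by 2.01 ± 0.50, with the largest standard error of this list (adjusted p = 0.0296). Il6ra rose by 1.94, Il21r by 1.94, and Csf1r, the macrophage growth factor receptor, by 1.83. The 4 that fell were Epor, Lifr (-0.36), Igf1r (-0.24) and Csf3r (-0.21), the granulocyte growth factor receptor; another probe of Lifr gave 0.067, and leaving out any cluster array but the first GFP+ one gave 2 falls in place of 4. The shared beta chains Csf2rb (0.048) and Il6st (-0.092) did not pass.

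The signalling and actin machinery of white blood cells rose in 31 of 40 genes, with 3 lower and a median of 1.32. Coro1a, an actin regulator, had levels of 4.05 and 4.02 on the GFP+ arrays and 2.05 and 2.09 on the GFP- arrays. Dock2, an activator of Rac in migrating white blood cells, read -1.88 and -1.68 against -3.94 and -3.75, again without overlap. Ptpn22, a phosphatase that dampens antigen receptor pathways, rose by 2.63 ± 0.19 from -4.41 and -4.22. Other called members included the exchange factor Vav1 (1.74), the adaptor Sla (2.11) and the unconventional myosin Myo1g (2.11). The 3 that fell were Ncf4 (-0.59), Wipf1 (-0.28, -0.069 by another probe) and Evl (-0.22).

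Macrophage genes moved with these blood cell genes. Of 33 measured, 31 rose, 1 fell and 1 did not pass, and the median of 1.70 was the highest of the 41 lists. Their linear levels, in units of the array's 75th percentile and summed over the list, were 87.1 and 88.6 in GFP+ cells and 36.7 and 37.5 in GFP- cells. Adgre1, the F4/80 antigen, read -0.0003 and 0.044 against -1.79 and -1.90, and C1qc, a complement chain made by tissue macrophages, 1.29 and 1.20 against -0.80 and -0.83. Lyz2 (lysozyme, 2.44 ± 0.21), Timd4 (2.61 ± 0.19), which binds dying cells, and the receptor adaptor Tyrobp (2.33 ± 0.080) were among the largest rises of all genes. Spic, the factor of red pulp macrophages, was at least 4.6-fold and Cd5l at least 4.51-fold higher, each measured in GFP+ cells alone. Pld4 (1.27) did not pass. The resident macrophage genes Cd163, Siglec1 and Vsig4 were not well above background on both arrays of any group. The part of macrophage RNA in the rises of blood cell, interferon-induced and inflammatory genes was not tested.

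Granulocyte genes rose in 8 of 20 cases and fell in 2 (median 0.69, 0.26 with normexp background correction). Mpo, myeloperoxidase of primary granules, was bright in both groups, at 4.42 and 4.42 against 2.86 and 2.92, and rose by 1.53 ± 0.068 (adjusted p = 8.15e-05). Prtn3, a granule protease, rose by 1.54, Srgn, which packs granules, by 1.62 and Cebpe, the factor of granule maturation, by 1.52, while Cebpd (-0.64) and Csf3r fell. Elane (0.10) and Ctsg (0.50), proteases of the same granules, did not pass. Of these calls, S100a9 and Ly6g were not well above background on any cluster array and are given no fold, and of 29 listed genes 9 were too dim to test.

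Platelet genes went both ways: 13 of 23 were higher, such as Selp (1.85), Itgb3 (1.61), Rgs18 (1.52) and Vwf (1.36), and 5 were lower, namely Gata1, Clec1b (-0.65), Mmrn1 (-0.54), F2r (-0.27) and Tubb1, which was well above background in GFP- cells alone. Without GFP- replicate 2 or GFP+ replicate 2 the falls were 3. The lymphoid list gave no common direction, with 4 higher, 5 lower and 8 not called. Ltb (1.38), Cd69 (1.45), Cd79b (0.97) and Vpreb1 (0.40) rose, and Ebf1 (-1.05), Lck (-0.74), Tcf7 (-0.48), Ets1 (-0.35) and Lat (-0.28) fell. Without GFP- replicate 1 the falls were 2 and without GFP+ replicate 1 they were 3. Of its 32 genes, 15 were not tested, the recombinase genes Rag1 and Rag2 among them.

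The PU.1 motif was in 2.39% of windows of genes tested and in 32 of 496 (6.45%) of those of genes at least 2-fold higher, against 7 of 380 (1.84%) at least 2-fold lower. It was in 6 of 18 windows of the granulocyte list, 4 of 45 of the signalling list and 1 of 29 of the macrophage list. The ETS motif, common at housekeeping starts, was in 5.05% of windows of genes tested, 0.806% for genes at least 2-fold higher and 0.526% for genes at least 2-fold lower. The RUNX motif was in 14% and the NF-kB motif in 1.41% of all windows. The RUNX motif was in 11% of windows of genes tested, 16.1% of those at least 2-fold higher and 10.8% of those at least 2-fold lower, and the NF-kB motif in 1.45%, 3.63% and 1.58%. Below are 3 genes that rose, 1 of each list, with the PU.1 motif or its reverse strand (ACTTCCTC) in capitals. All 3 windows hold a match, unlike most windows of these lists.
Mpo, chr11:87793534-87793783, plus strand: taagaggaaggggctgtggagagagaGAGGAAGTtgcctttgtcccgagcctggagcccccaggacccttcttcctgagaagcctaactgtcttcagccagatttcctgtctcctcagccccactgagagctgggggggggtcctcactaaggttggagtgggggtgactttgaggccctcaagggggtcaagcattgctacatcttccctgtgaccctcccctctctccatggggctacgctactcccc
Vav1, chr17:57278850-57279099, plus strand: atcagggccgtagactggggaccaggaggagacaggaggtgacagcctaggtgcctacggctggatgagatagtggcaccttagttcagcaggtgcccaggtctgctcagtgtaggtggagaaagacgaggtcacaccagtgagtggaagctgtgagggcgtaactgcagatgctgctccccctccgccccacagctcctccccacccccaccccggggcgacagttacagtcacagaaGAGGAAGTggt
C1qc, chr4:136892915-136893164, minus strand: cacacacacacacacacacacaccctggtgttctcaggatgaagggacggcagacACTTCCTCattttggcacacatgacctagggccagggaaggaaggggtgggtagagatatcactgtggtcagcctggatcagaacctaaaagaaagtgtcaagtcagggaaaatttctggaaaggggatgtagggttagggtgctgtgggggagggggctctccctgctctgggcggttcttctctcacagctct

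**Figure D2:**
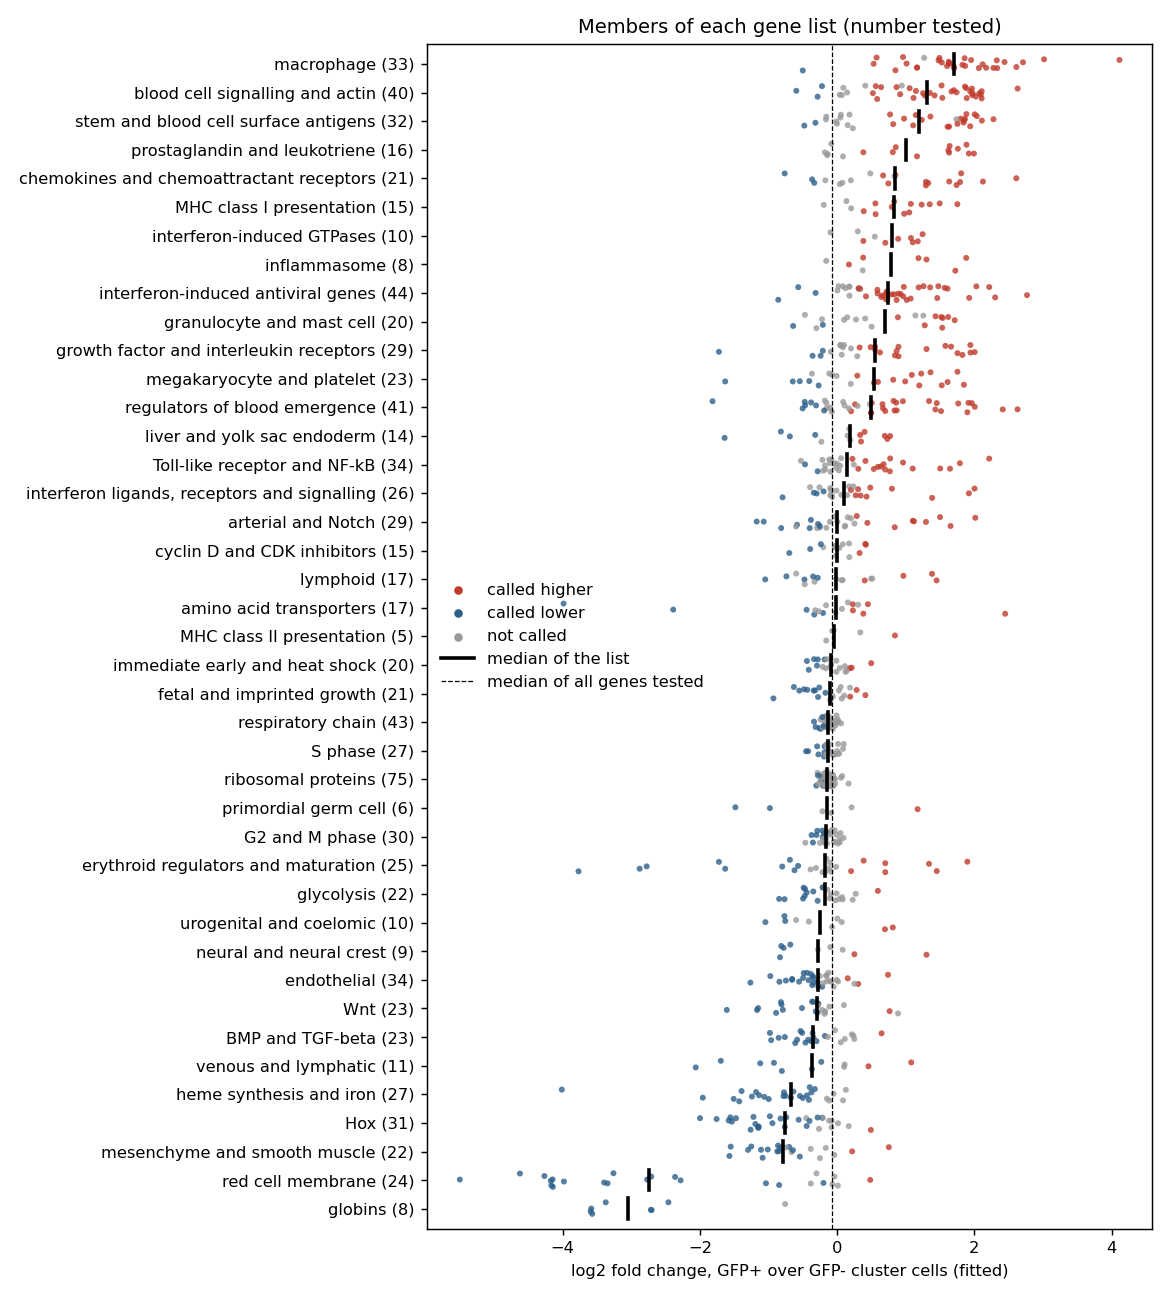
Fitted log2 fold change of GFP+ over GFP- cluster cells for every tested member of the 41 gene lists, 1 point a gene, ordered by the list's median (black bar); the dashed line is the median of all genes, -0.076. Globins (-3.04) and red cell membrane genes (-2.74) lie at the low end and macrophage genes (1.70) at the high end, while S phase (-0.13) and ribosomal protein genes (-0.14) sit close to the median of all genes.

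Interferon-induced genes were higher. Of 26 measured members of the interferon pathway itself 10 were higher and 4 lower, where 11.8% of all genes were higher and 20.9% lower. Interferon-induced genes are the effectors that cells switch on after interferon binds its receptor and STAT and IRF factors reach the nucleus. Some are also kept on at a low level in blood stem cells. Among 44 measured antiviral genes 33 were higher and 3 lower (median 0.74). Oas1a, a sensor that starts RNA decay (chr5:121346735-121346794), had levels of 0.025 and -0.07 on the GFP+ arrays and -1.92 and -1.98 on the GFP- arrays. Ifi204, a DNA sensor of the p200 family, read -0.63 and -0.69 against -2.74 and -2.64, and Isg15, the ubiquitin-like modifier, -1.10 and -1.10 against -2.19 and -1.95. Oas2 and Ifi203, measured in GFP+ cells alone, have bounds: Oas2 was at least 3.4-fold higher and Ifi203 by a factor of at least 2.73. Ifi44 was called higher with 1 GFP+ array alone well above background. The 3 that fell were Cmpk2 (-0.86), Rsad2 (-0.57) and Sting1 (-0.31). Among interferon-induced GTPases 7 of 10 rose and 0 fell: Gvin1 (1.25), Gbp7 (1.18), Irgm2 (1.10), Irgm1 (1.08), Gbp4 (0.89), Gbp2 (0.70) and Igtp (0.38). Gbp3 (0.55), Tgtp1 (0.30, well above background on 1 GFP- array alone) and Gbp9 (-0.10) did not pass.

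Antigen presentation by MHC class I is a target of the same response, and 12 of 15 genes rose with 0 lower (median 0.83). H2-K1, a classical heavy chain, had levels of 1.65 and 1.50 on the GFP+ arrays and 0.24 and 0.21 on the GFP- arrays, the nonclassical H2-T23 rose by 1.23, the loading factor Tapbp by 1.07 and the shared light chain B2m by 0.39. The inducible proteasome subunits Psmb9 (1.75) and Psmb8 (1.49) rose with them. Of 5 MHC class II genes H2-DMa rose (0.84, well above background on 1 of the GFP- arrays), and Ciita (-0.048), Cd74 (0.34), H2-Ab1 (-0.071) and H2-Eb1, seen in GFP- cells alone, did not pass.

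The ligands, receptors and transducers of interferon gave 10 higher, 4 lower and 12 not called of 26 (median 0.10). Irf9, the DNA-binding part of the type I complex, rose by 0.34 ± 0.046 and Irf1 by 0.43 ± 0.063. Stat2, which joins Irf9 in that complex, had a difference of 0.18 ± 0.055 that did not pass (adjusted p = 0.0589), and neither did Irf3 (0.061), Irf2 (0.24), Jak1 (0.15), Jak2 (-0.10) or Jak3 (-0.26). Larger rises were those of factors known from myeloid and lymphoid cells, Stat4 (2.00 ± 0.058), Irf5 (1.92, well above background on 1 of the GFP- arrays) and Irf8 (0.80). Stat6 (0.48, between -0.0067 and 0.39 by 2 other probes), Ifnar2 (0.31), Ifngr1 (0.27) and Stat3 (0.20) rose by less. Socs3, the feedback inhibitor, fell (-0.79), as did Ifngr2 (-0.34), Ifnar1 (-0.30, 0.06 by another probe) and Tyk2 (-0.20). Of the ligands, Ifna1 (-0.39), Ifna2 (-0.071) and Ifnl3 (-0.09) did not pass, the inhibitors Socs1 (-0.0091), Ptpn2 (-0.10) and Ptpn11 (-0.082) did not either, and Ifnb1, Ifng and Irf7 were too dim to test.

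The interferon response motif was in 2.98% of all windows, 2.53% of those of genes tested, 9 of 39 (23.1%) of antiviral genes, 7 of 8 of the GTPases and 2 of 15 of the MHC class I list. It was also in 6 of 28 windows (21.4%) of the ligands, receptors and transducers of interferon. Below are 3 windows of genes that rose, each holding the motif, which is in capitals. In Oas1a and Irgm1 the overlapping matches form 1 longer run just before the start, and in H2-T23 the motif reads on the reverse strand.
Oas1a, chr5:120907526-120907775, minus strand: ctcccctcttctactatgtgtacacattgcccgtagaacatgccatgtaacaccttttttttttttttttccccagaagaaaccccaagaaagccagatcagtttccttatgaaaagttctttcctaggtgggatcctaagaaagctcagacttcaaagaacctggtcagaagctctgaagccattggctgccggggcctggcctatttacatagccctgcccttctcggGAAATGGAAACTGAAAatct
Irgm1, chr11:48871421-48871670, minus strand: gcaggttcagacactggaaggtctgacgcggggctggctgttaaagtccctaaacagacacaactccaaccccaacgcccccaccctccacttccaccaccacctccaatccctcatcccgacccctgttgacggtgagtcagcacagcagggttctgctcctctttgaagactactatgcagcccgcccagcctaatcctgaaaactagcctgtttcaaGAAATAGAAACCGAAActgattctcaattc
H2-T23, chr17:36032702-36032951, minus strand: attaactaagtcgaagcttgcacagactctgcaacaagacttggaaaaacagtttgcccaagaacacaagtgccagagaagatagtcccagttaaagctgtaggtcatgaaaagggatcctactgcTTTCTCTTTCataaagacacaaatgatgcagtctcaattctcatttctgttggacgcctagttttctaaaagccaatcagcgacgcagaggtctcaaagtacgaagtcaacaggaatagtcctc

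In the Toll-like receptor and NF-kB list 16 genes of 34 were higher in GFP+ cells and 2 lower (median 0.14). Tlr7, a receptor of viral RNA, rose by 1.10 and the inhibitory kinase Irak3 by 2.22. Tlr1 was at least 1.86-fold higher, and Tnf rose by 1.65 with 1 of the GFP- arrays well above background. The NF-kB subunits themselves gave Rela at 0.025 and Nfkb1 at 0.24, not called, and Relb (-0.47) and Nfkb2 (-0.28), which fell; the inhibitor Nfkbia (-0.082) did not pass. Il1b was at least 1.94-fold higher, and of the inflammasome genes that process it 6 of 8 rose, with Casp1 at -1.09 and -1.04 against -3.01 and -2.88, Gsdmd up by 1.30 and Pycard by 1.19, while Nlrp3 (0.37) did not pass; 3 inflammasome genes rose when GFP- replicate 1, GFP- replicate 2 or GFP+ replicate 1 was left out, and also with no filter on low signals.

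Chemokines rose in 12 of 21 cases, Ccl6 (2.61 ± 0.084), Ccl9 (2.13), Ccl24 (1.81) and Ccl4 (1.74) among them. The 3 that fell were Cxcl12 (-0.76), the homing signal of stem cells, its receptor Cxcr4 (-0.33) and its scavenger Ackr3 (-0.36). In the prostaglandin and leukotriene list, 11 of 16 rose and 0 fell (median 1.01). The phospholipase Pla2g4a, which frees the substrate (2.14 and 2.31 against 0.38 and 0.54), and the leukotriene pair Alox5 (1.64) and Alox5ap (1.99) were higher, the prostaglandin D synthase Hpgds rose at least 2.37-fold, the inducible cyclooxygenase Ptgs2 at least 1.82-fold, and the prostaglandin E synthases Ptges (-0.14), Ptges2 (-0.18) and Ptges3 (-0.14) did not pass. With normexp background correction the medians of the chemokine and prostaglandin lists were 0.48 and 0.503, of which 11 and 10 genes still rose.

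Endothelial genes that passed were mostly lower in GFP+ cells. Of 34 measured, 19 fell and 3 rose (median -0.28), and 1 fell by 2-fold or more. With quantile normalization 15 fell (median -0.18), and with normexp background correction 11. Esm1, a secreted product of sprouting tip cells, fell by 1.26 ± 0.071, from 1.61 and 1.49 to 0.31 and 0.26. The tip cell ligand Apln (-0.97) and its receptor Aplnr (-0.84) fell too, as did the junction gene Cldn5 (-0.66), the lipase anchor Gpihbp1 (-0.75) and the receptor Kdr (-0.35, -0.011 by its other probe). Kdr nonetheless stayed bright on all arrays, at 5.14 and 5.07 against 5.45 and 5.46. Tie1 (-0.0054), Tek (0.014) and Nos3 (-0.049) did not pass. The 3 that rose were Calcrl (0.74), Clec14a (0.31) and Adgrl4 (0.16).

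The arterial and Notch list gave 9 higher and 8 lower of 29 (median 0.005, and -0.047 with the mean of a gene's probes). Genes known from arteries were among those that rose: the gap junction gene Gja5 (2.59 and 2.55 against 0.56 and 0.55), Bmx (1.50), Ltbp4 (1.29) and Fbln5 (1.12). Notch receptors and targets gave Notch4 (-0.38), Notch3 (-0.58), Hes1 (-0.81) and Nrarp (-0.40) as lower, with Igfbp3 (-1.17) and Unc5b (-1.07), and Notch1 (0.11), Dll4 (-0.26), Rbpj (-0.038) and Efnb2 (0.005) as not called. Hey2 was called higher but was well above background on 1 of the 4 cluster arrays. Venous and lymphatic genes fell in 7 of 11 cases: the lymphatic master factor Prox1 was at least 2.84-fold lower, Ephb1 fell by 1.69, Pdpn by 1.12, Nrp2 by 0.92, and Flt4 by 0.81. Clec4g (1.08) and Stab2 (0.46), found on sinusoids, rose.

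Hox genes, which record position along the body axis, were lower by cluster of genes. Of 31 measured, 22 fell and 1 rose (median -0.76). Every measured gene of the Hoxb (8) and Hoxc (6) clusters and 5 of 6 of the Hoxd cluster fell, with medians of -0.79, -1.37 and -1.35. In the Hoxa cluster 3 of 11 fell, 1 rose and 7 did not pass (median -0.21), and the gene that rose was Hoxa9 (0.49 ± 0.054), a stem cell regulator. Hoxd9 stood at -3.78 and -3.69 against -1.90 and -2.05 and Hoxc9 at -2.28 and -2.17 against -0.64 and -0.65, in each case without overlap. Hoxd11 was at least 2.71-fold, Hoxc5 at least 2.25-fold and Hoxd3 at least 1.87-fold lower. Hoxb4, used to expand blood stem cells, fell by 0.40 ± 0.048. With the genes below background left out, 16 of 24 fell.

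**Figure D3:**
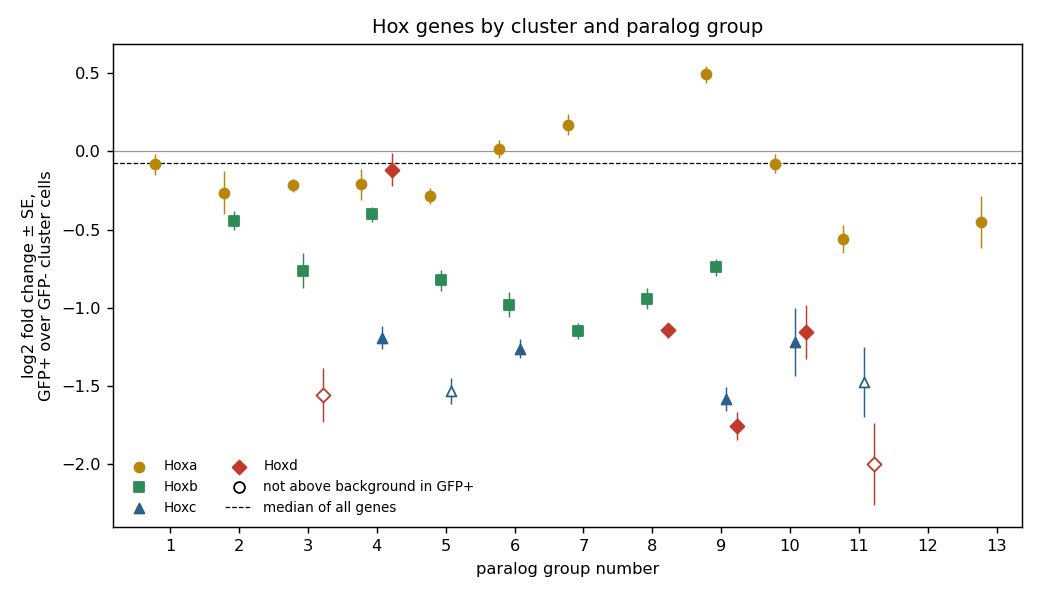
Fitted log2 fold change with its standard error for each measured Hox gene, by paralog group number on the horizontal axis and by cluster (colour and shape); open symbols mark genes not well above background on either GFP+ array. Hoxa genes lie between -0.56 and 0.49, on either side of the median of all genes (dashed), whereas Hoxc genes lie between -1.58 and -1.19.

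Genes of mesenchyme and smooth muscle moved with the Hox genes: of 23 listed and 22 measured, 14 fell, 2 rose and 6 did not pass (median -0.79). Their linear levels summed to 17.8 and 18.3 in GFP+ cells and 27.7 and 27.6 in GFP- cells, in units of the array's 75th percentile. The collagen genes Col3a1 (0.68 and 0.61 against 1.96 and 1.92) and Col1a1 (0.72 and 0.75 against 1.84 and 1.85) and the receptor Pdgfra (-1.25) fell, Prrx1 was at least 2.55-fold lower, and Acta2 (0.22) and Fbn1 (0.75) rose. The smooth muscle myosin Myh11 was too dim to test. The part of mesenchymal RNA in the Hox, BMP and Wnt differences was not tested. Other tissues of the region gave mixed values: Wt1 (-1.04) and Osr1 (-0.76) of the urogenital ridge fell while Gata4 (0.70) rose, and of 14 liver and yolk sac genes 6 rose, such as Apoa1 (0.77), and 4 fell, such as Afp (-0.32). Of 9 neural genes 2 rose and 4 fell, and of 6 germ cell genes 1 rose and 2 fell. Without GFP+ replicate 1 the liver and yolk sac rises were 3, with normexp they were 2, and the neural falls were 2 without GFP- replicate 2 or either GFP+ array.

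Genes of signals that pattern the aorta were called lower more often than higher in GFP+ cluster cells. The lists mix ligands, receptors, targets and inhibitors, and whether signalling itself was lower was not tested. By 2-fold or more, 0 genes of the BMP and TGF-beta list and 3 of the Wnt list fell. In the BMP and TGF-beta list 15 of 23 fell and 1 rose (median -0.36; 9 fell without GFP- replicate 1, and 7 with normexp background correction or 8 with no filter on low signals). The ligand Bmp4 (2.56 and 2.44 against 3.26 and 3.44), the matrix protein Tgfbi (-0.98), induced by TGF-beta, and the ligands Tgfb2 (-0.76) and Tgfb3 (-0.61) fell, and Smad6, an inhibitor induced by BMP, rose (0.65 ± 0.077). In the Wnt list 14 of 23 fell and 1 rose (median -0.29; 8 fell without GFP- replicate 1 and 9 with normexp or with no filter). The nuclear factor Lef1 (-1.17), the receptor Fzd7 (-0.89), the feedback gene Nkd1 (-0.82) and the secreted inhibitor Sfrp1 (-1.15) fell, and another inhibitor, Sfrp2, rose (0.77).

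Growth genes lay within 2-fold. No member of the S phase, G2 and M phase, ribosomal protein and respiratory chain lists, 175 genes in all, rose. Of these 175 genes 33 fell, 0 of them by 2-fold, where 20.9% of all genes were lower and 11.8% higher. Values over these lists lay between -0.46 and 0.17. Their medians lay between -0.16 and -0.13, close to the -0.076 of all genes. With quantile normalization the medians of the ribosomal and respiratory lists were 0.017 and 0.006, 1 ribosomal gene rose and 0 fell, and 1 S phase and 1 G2 and M phase gene rose, so these small falls depend on the scaling. Leaving out 1 array at a time gave 3 to 4 S phase, 1 to 4 G2 and M phase, 0 to 3 ribosomal and 0 to 3 respiratory genes lower. Mki67, the proliferation antigen, read 4.79 and 4.71 against 5.16 and 5.09 (difference -0.37 ± 0.050), and Ccnd1, the cyclin of growth factor entry, 2.64 and 2.59 against 3.32 and 3.31 (difference -0.70 ± 0.045). The cell cycle inhibitors Cdkn1c (0.41), Cdkn1a (0.33) and Rbl2 (0.42) rose, Cdkn1b fell (-0.24, 0.13 by another probe), and Myc (-0.0034) did not pass. In the list of cyclin D and cell cycle inhibitor genes 3 of 15 rose, and 1 rose with normexp background correction. Glycolysis genes fell in 10 of 22 cases, led by the glucose carrier Slc2a1 (-0.84) and Pfkl (-0.77), and Hk2 rose (0.59). With quantile normalization 6 fell and 3 rose.

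Amino acid carriers held some of the widest differences outside the red cell lists. Slc38a5, a glutamine and serine carrier, had levels of -2.04 and -2.08 on the GFP+ arrays and 1.94 and 1.91 on the GFP- arrays; it fell by 3.99 ± 0.046 (adjusted p = 5.81e-06). Slc6a9, the glycine carrier GlyT1 that supplies heme synthesis, read -0.77 and -0.80 against 1.60 and 1.61. Slc7a8, a carrier of large neutral amino acids, went the other way, with -1.12 and -1.20 against -3.60 and -3.62 (difference 2.45 ± 0.19). Of 17 carriers 5 rose and 5 fell, so the list had no common direction. Leaving out 1 array at a time gave 3 to 4 rises and 3 to 4 falls. Among fetal and imprinted genes 10 of 21 fell and 3 rose, but with quantile normalization 6 fell and 6 rose, and without GFP- replicate 1 6 fell. Lin28a, which keeps blood progenitors in a fetal state, had levels of -0.88 and -0.78 against 0.16 and 0.029 (difference -0.93 ± 0.067), its relative Lin28b (0.19) did not pass, and Hmga2, a target of that pathway, rose (0.29). Of 20 immediate early and heat shock genes, which respond to handling, 3 rose and 6 fell, all within 0.50 of 0. With no filter on low signals, or with only the 4 cluster arrays, 1 rose and 1 fell.

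Beyond the lists, the 15 largest falls among genes measured on all 4 arrays also held Abcg4 (-3.40 ± 0.063), the metallothionein Mt2 (-3.20 ± 0.055), the chloride channel Ano1 (-3.06 ± 0.056), the coactivator Cited4 (-3.02 ± 0.075) and the phosphatase Acp5 (-2.96 ± 0.046). Mt2 had levels of 1.52 and 1.60 on the GFP+ arrays and 4.79 and 4.73 on the GFP- arrays. Among the 15 largest rises stood Ly6a itself, Wfdc17 (2.71 ± 0.29), the recognition molecule Fcna (2.44 ± 0.18), the apolipoprotein receptor Apobr (2.42 ± 0.14), the inhibitory receptor Lilrb4a (2.41 ± 0.14), the phagosomal metal carrier Slc11a1 (2.33 ± 0.11) and Cd300c2 (2.32 ± 0.081). Of 19538 genes tested, 60 had a bound as higher and 505 a bound as lower. Fewer probes were well above background on the GFP+ cluster arrays (54.6% and 58.9%) than on the GFP- cluster arrays (61.7% and 61.9%). The part of this detection difference in these counts was not tested. Cd274 (PD-L1) was at least 4.75-fold, the vitamin D receptor Vdr at least 4.42-fold, Bcl2a1d at least 4.2-fold and Psd4 at least 3.7-fold higher. Ccdc92b was at least 11.4-fold, Lmx1a at least 11.1-fold, Gcg, which encodes proglucagon, at least 8.32-fold and Pdia2 at least 7.31-fold lower.

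Replicate 1 of each group lay on 1 slide and replicate 2 on the other, so each slide holds both groups, and the position on the slide and the group cannot be told apart. List medians on slide 1 and slide 2 were -3.07 and -3.08 for globins, 0.48 and 0.53 for regulators of emergence, 1.71 and 1.70 for macrophage genes, and -0.73 and -0.78 for Hox genes. Of 56 named genes with another probe above background on all 4 cluster arrays, 12 had 1 of opposite sign. With the replicate pairing as a block limma called 6879 genes, against 6397 without it. Leaving out the first GFP- array gave 3679 calls, with 1478 higher and 2201 lower.

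**Figure D4:**
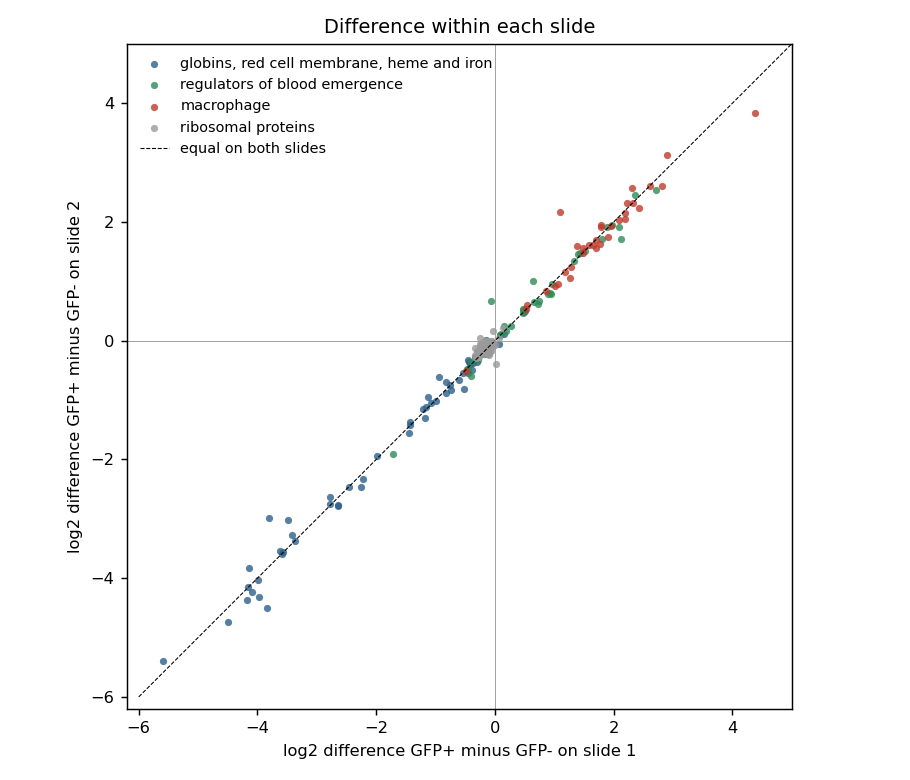
Log2 difference of GFP+ minus GFP- cluster cells on slide 1 (horizontal) and slide 2 (vertical) for the members of 6 gene lists, 1 point a gene; the dashed line marks equal differences. Red cell genes lie at the lower left, macrophage genes at the upper right and ribosomal protein genes near 0.

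Where the GFP difference of cluster cells departed from that of endothelial cells was tested as an interaction. It was called for 6085 genes (31.1%). In the endothelial contrast 10061 genes were called (51.5%), 18.1% of all genes higher and 33.3% lower. Red cell membrane genes fell further in cluster cells, with an interaction called for 18 of 24, 16 of them more negative in cluster cells, and medians of -2.74 and -1.62. Slc38a5, the amino acid carrier, stood at -3.99 in cluster cells and -0.23 in endothelial cells (interaction adjusted p = 4.71e-05). Gata1, by contrast, fell by 1.63 in cluster cells and 1.53 in endothelial cells, with no called interaction (adjusted p = 0.34).

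Blood cell signalling genes rose further in cluster cells, with an interaction called for 34 of 40, 32 of them more positive, and medians of 1.32 and 0.22. Ptpn22 was 2.63 against 0.77 and Coro1a 1.97 against 0.23 (interaction adjusted p = 0.00686 and 0.0011), whereas Dock2, at 2.07 against 1.78, had none called. Runx1 rose by 1.96 against 0.88, while Gfi1 rose by 2.63 against 2.98 (interaction adjusted p = 0.00427 and 0.0466). Macrophage genes rose in both classes, with medians of 1.70 and 1.22 and an interaction for 17 of 33. Antiviral genes were alike in median, 0.74 against 0.63, with an interaction for 15 of 44. Endothelial genes had an interaction for 19 of 34, all more negative in cluster cells, with medians of -0.28 and 0.093.

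**Figure D5:**
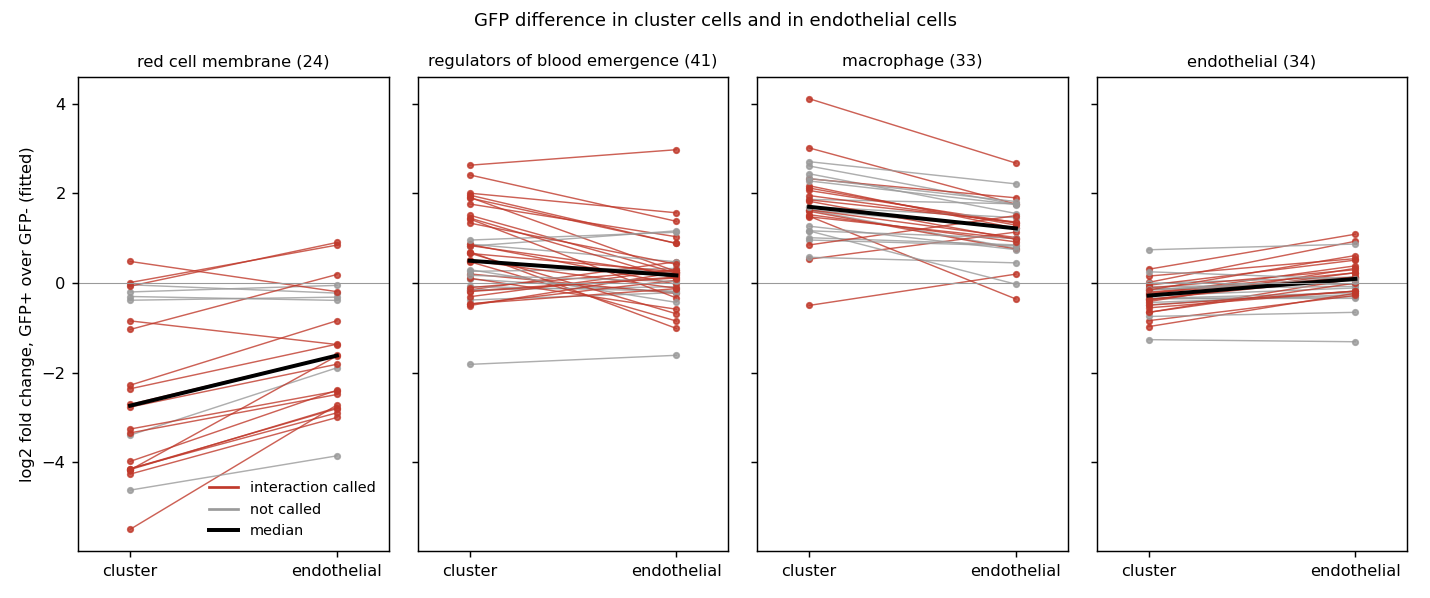
Fitted log2 fold change of GFP+ over GFP- cells in cluster cells and in endothelial cells for members of 4 gene lists, with a line a gene (red where the interaction was called) and the median in black. Red cell membrane medians are -2.74 in cluster cells and -1.62 in endothelial cells, and those of endothelial genes -0.28 and 0.093.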

How the data were processed

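The series holds 8 arrays of 1 colour in 4 sorted groups of 2. Deposited intensity values (processed signals) were background-subtracted and detrended by the scanner's Agilent Feature Extraction 10.10.1.1, per the file headers. Control spots and 10 flagged probes were left out, log2 of each signal was taken minus the array's 75th percentile, and the brightest of a gene's 39419 kept probes was used. Genes were tested where any group had both its arrays well above background, by limma 3.58.1 (R 4.3.3) over 8 arrays, with 4 residual degrees of freedom and Benjamini-Hochberg adjustment; the script was tested on simulated data. Python 3.11.15 and pandas 2.3.3 made the summaries. Bounds set the brighter group's mean against the dimmer group's mean, after raising each dim array's value to that array's lowest signal well above background where it lay under it. Alternatives are quantile scaling, normexp (offset 50), the authors' deposited value table, filters, probe choice, replicate block and leaving out arrays. Same-numbered arrays share a slide and deviated together (correlations of 0.14 to 0.36). The members and lists were chosen with earlier results of these data known. Named are the gate genes, the 15 largest changes and 8 largest bounds each way, up to 5 called members of a list each way, uncalled members and any regulator, globin, GTPase or interferon signalling gene. Adgre1, B2m, C1qc, Coro1a, Hoxb4, Isg15, Itga2b, Kdr, Ly6g, Notch4, Ptprc, Rn18s, S100a9, Stat5a, Tfrc and Vav1 lie outside that rule and were chosen after their values were seen. Promoter sequences are RefSeq's. Some listed genes are counted with their lists but not reported by name here.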

Additional observations from a re-analysis of the deposited data

Results flagged for a closer look

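Each of these 25 named genes was called in both cell classes in opposite directions, and the difference between the classes was itself called (limma interaction, Benjamini-Hochberg adjusted p under 0.05). All values are log2 fold changes of GFP+ over GFP- cells, n = 2 against 2 arrays. Over all genes tested, 730 (3.74%) met the same conditions. Gcg was at least 8.32-fold lower in GFP+ cluster cells, where its fitted change was -4.34, and 2.99 in endothelial cells. Higher in GFP+ cluster cells and lower in GFP+ endothelial cells were Alox5 (1.64 in cluster cells, -0.34 in endothelial cells), Prtn3 (1.54 in cluster cells, -0.70 in endothelial cells), Mpo (1.53 in cluster cells, -0.52 in endothelial cells) and Rgs18 (1.52 in cluster cells, -1.11 in endothelial cells). The same held for Rn18s (1.31 in cluster cells, -2.29 in endothelial cells), Apoa1 (0.77 in cluster cells, -0.74 in endothelial cells), Cited2 (0.70 in cluster cells, -0.28 in endothelial cells) and Gfi1b (0.70 in cluster cells, -1.01 in endothelial cells). Those called in the same way also included Cd47 (0.48 in cluster cells, -0.19 in endothelial cells), Stat5a (0.39 in cluster cells, -0.35 in endothelial cells), Lmo2 (0.20 in cluster cells, -0.23 in endothelial cells) and Stat3 (0.20 in cluster cells, -0.20 in endothelial cells). Lower in GFP+ cluster cells and higher in GFP+ endothelial cells were Notch3 (-0.58 in cluster cells, 0.23 in endothelial cells), Rsad2 (-0.57 in cluster cells, 0.30 in endothelial cells), Emcn (-0.48 in cluster cells, 0.35 in endothelial cells) and Notch4 (-0.38 in cluster cells, 0.39 in endothelial cells). The same order was found for Mki67 (-0.37 in cluster cells, 0.26 in endothelial cells), Ackr3 (-0.36 in cluster cells, 0.74 in endothelial cells), Lifr (-0.36 in cluster cells, where another probe gave 0.067, 0.22 in endothelial cells) and Prom1 (-0.32 in cluster cells, 0.21 in endothelial cells). Smaller differences of that kind were those of Sox7 (-0.31 in cluster cells, 0.30 in endothelial cells), Wipf1 (-0.28 in cluster cells, 0.28 in endothelial cells), F2r (-0.27 in cluster cells, 0.46 in endothelial cells) and Igf1r (-0.24 in cluster cells, 0.33 in endothelial cells). Another probe of Wipf1 gave -0.069 in cluster cells. Among these 25 genes, Mpo, Prtn3 and Alox5 encode products of myeloid cells, and Notch3, Notch4, Sox7 and Emcn are known from vessels.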

How the results depend on the processing

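Of 6397 calls, the count stayed within 1.5 times under quantile normalization (6006), the authors' deposited table (6064), the mean of a gene's probes (5975), trend and robust moderation (7411) and the stricter filter on dim genes (6464). With the replicate number as a block, which pairs arrays of a slide, it was 6879, with 1055 by at least 2-fold and 7094 interactions. Without a filter it was 3792, with 2246 lower and 2743 interactions. With only the 4 cluster arrays 2684 were lower, and with normexp background on those 4 arrays 2850 were called, 1266 higher, 1584 lower and 483 by at least 2-fold. Leaving out each cluster array in turn gave 3679 to 4641 calls, 1478 to 1720 higher, 2201 to 2935 lower and 3589 to 4657 interactions; without GFP- replicate 1 the calls were 3679 and without GFP- replicate 2 they were 4071. In these fits the lone array was assumed to vary like the other groups. Rbpj, not called, was 0.25 and called with the mean of its probes, where its other probe differed. With quantile normalization 45.7% of calls were higher against 36.1%. The cause of these shifts was not tested. Signal over background limits the dim genes, which have only bounds.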
